A study of Saccharomyces cerevisiae with 4 samples.

Results

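The genes described here are the purine synthesis genes ADE1, ADE2, ADE4, ADE6, ADE8, ADE13 and ADE17, the one-carbon genes SHM2 and MTD1, and BAS1, the gene of their activator, in budding yeast (Saccharomyces cerevisiae). They were taken by name and make up 10 of the 6697 genes of the deposited table. They were picked with the log2 fold changes of this comparison in view, so their differences are given as a description without a test. Cultures of both groups grew at 30 °C in the rich glucose medium YPD and were taken at an OD600 of 1.0. The wild type (WT) and 9Myc-Swd2, an otherwise isogenic strain per the labels in which 9 Myc epitopes precede the Swd2 protein, have 2 libraries each. Swd2 is a WD-repeat protein of the histone methyltransferase complex COMPASS and of the cleavage and polyadenylation factor. The sources used here give neither the promoter of the tagged allele nor the number of clones. The comparison asks how expression differed between the strains, and "with the tag" below means in the 9Myc-Swd2 libraries.

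Yeast makes purines through a chain of enzymes that builds inosine monophosphate (IMP) on phosphoribosyl pyrophosphate (PRPP), after which separate branches lead to AMP and GMP. Formyl groups for the ring come from one-carbon units carried by folate, which serine hydroxymethyltransferases such as Shm2 supply. The Myb-related protein Bas1, together with the homeodomain protein Pho2, activates most of these genes when purines are short, and intermediates of the pathway promote the contact of Bas1 with Pho2. Bas1 binds the letters TGACTC, which are also the core of the site of Gcn4, the general activator of amino acid synthesis genes.

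The libraries held between 7849193 and 8388090 reads assigned to genes. SWD2 was at 343 ± 11.5 normalized counts in WT and 1025 ± 78.9 in 9Myc-Swd2 (SD, n = 2 each), with a limma-trend adjusted p of 2.4e-10. LEU2, a leucine synthesis gene, was at 26.9 ± 6.37 and 2219 ± 79.3, so the strains also differed in the level of a gene other than SWD2. Genes of chromosome XI, where SWD2, BAS1 and MTD1 lie, had a median log2 fold change of 0.90. On the other nuclear chromosomes the median ranged from -0.06 to 0.04. The LEU2 and chromosome XI differences go with the tag in every library. Their parts in the differences below cannot be told apart from that of the tag. Over all 6503 genes tested, 43.7% passed a limma-trend adjusted p of 0.05, 1393 lower (21.4%) and 1448 higher (22.3%) with the tag; with libraries scaled to their total reads 1728 were lower and 1196 higher. Whether the 2 libraries of a strain stem from separate cultures is not stated, so the p-values cover the spread between these libraries, which may be technical. In such bulk RNA, fewer cells with a transcript and less of it per cell cannot be told apart.

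Most of the ADE genes had lower normalized counts in the 9Myc-Swd2 libraries, while BAS1 had higher ones and MTD1 and ADE8 were at similar values. Both tagged libraries lay below both WT libraries for 7 of the 10 genes, above them for BAS1, and overlapped with WT for ADE8 and MTD1. Over all genes tested 35.6% lay below and 36.0% above in this way (71.6% in all), and since the genes were picked on this comparison nothing is read from their count. At the threshold those 7 would be called lower, beside 21.4% of all genes. BAS1 would be called higher, beside 22.3% of all genes and 90.6% of the genes of chromosome XI, where it lies. For the same reason this is no test of the 10 genes. Added over the 7 ADE genes, the 2 WT libraries held 38035 and 37131 normalized counts and the tagged ones 23447 and 23947. All 10 genes have 1 coding exon, and no other gene in the RefSeq annotation overlaps any of them. The lowest WT mean was that of BAS1, at 605 ± 2.78 normalized counts, and all 10 passed the filter on low values, a mean of at least 1.

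**Figure D1:**
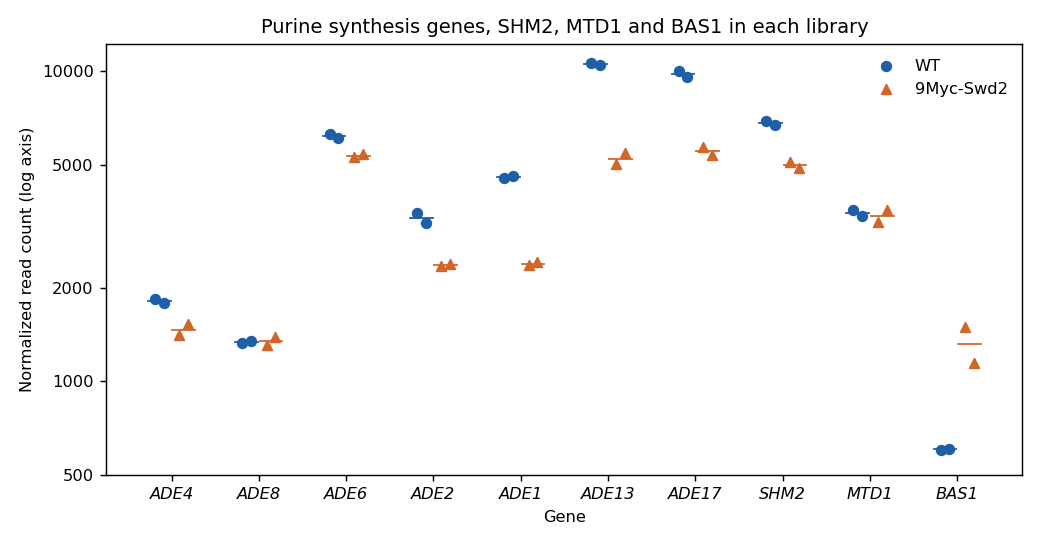
Normalized read count (log axis) of the 10 genes in each of the 2 WT (circles) and 2 9Myc-Swd2 libraries (triangles), with short lines at the group means. ADE13, ADE1 and ADE17 lie furthest below WT, from 10538 to 5229 for ADE13, whereas ADE8 and MTD1 overlap between the groups and BAS1 lies higher in both tagged libraries.

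Of the 7 ADE genes, ADE13, ADE1 and ADE17 lay furthest below WT. ADE13 (YLR359W) encodes adenylosuccinate lyase, which acts both in the IMP chain and in the AMP branch. Its normalized counts were 10609 and 10467 in WT, against 5018 and 5440 with the tag. The means differed by -50.4%, a log2 fold change of -1.01 ± 0.08 (SE). Each SE of a log2 fold change here comes from the limma-trend fit, which draws the gene's variance toward a trend over all genes. It does not give the spread of that gene's libraries alone. ADE1 (YAR015W), which encodes the synthetase of the intermediate SAICAR just before that lyase, was at 4512 and 4601 in WT and 2365 and 2419 in 9Myc-Swd2, a log2 fold change of -0.93 ± 0.07. Both ADE13 and ADE1 thus lay far outside the spread of either pair of libraries. ADE17 (YMR120C) encodes an isozyme of the last enzyme of the chain, which adds the second formyl group and closes the ring. Its values were 10003 and 9592 in WT and 5713 and 5361 in 9Myc-Swd2, with a log2 fold change of -0.82 ± 0.08.

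The other 4 ADE genes showed smaller differences. ADE2 (YOR128C), the carboxylase of the intermediate AIR, was at 3487 and 3249 in WT and 2352 and 2393 in 9Myc-Swd2 (-0.50 ± 0.07). ADE4 (YMR300C), the amidotransferase of the first step from PRPP, was at 1838 and 1784 against 1408 and 1529 (-0.30 ± 0.07). The lower values of both were separated from WT in each library. ADE6 (YGR061C), the enzyme that adds the amide nitrogen of glutamine to the formylated intermediate, was at 6256 and 6093 against 5275 and 5415 (-0.21 ± 0.07). This was the smallest of the differences without overlap, with means that differed by -13.4%. ADE8 (YDR408C), the first formyl transferase of the chain, was at 1330 and 1345 in WT and 1315 and 1389 in 9Myc-Swd2. Its tagged libraries lay on either side of both WT libraries, and its log2 fold change was 0.02 ± 0.07. The sign for ADE8 changed with the scaling: its log2 fold change was -0.10 after quantile normalization and -0.04 with scaling to total reads.

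SHM2 (YLR058C), the cytosolic serine hydroxymethyltransferase, was read at 6910 and 6726 normalized counts in WT and 5101 and 4885 in 9Myc-Swd2, a log2 fold change of -0.45 ± 0.07. MTD1 (YKR080W), the cytosolic NAD-dependent methylenetetrahydrofolate dehydrogenase, was at 3562 and 3425 in WT and 3274 and 3563 in 9Myc-Swd2. Its groups overlapped, and its log2 fold change was -0.03 ± 0.07. BAS1 (YKR099W) was at 603 and 606 in WT and at 1497 and 1144 in 9Myc-Swd2. BAS1 was 2.18-fold higher on average (log2 fold change 1.11 ± 0.10, an SE drawn toward the trend over all genes). The tagged libraries differed from each other by 0.39 on the log2 scale, more than for any other of the 10 genes. The median of this difference between the tagged libraries was 0.09 over the 10 genes and 0.10 over the 5860 genes whose mean was 5 CPM or more.

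BAS1 and MTD1 share chromosome XI and had unlike values. Of the 342 chromosome XI genes tested, 310 (90.6%) were higher at a limma-trend adjusted p under 0.05. The quartiles of the log2 fold change over all 342 were 0.65 and 1.10. BAS1, at R64 chromosome XI positions 635851 to 638286 on the plus strand, lay 0.21 above the chromosome median, and 77 genes of the chromosome had a higher log2 fold change. MTD1, at 590395 to 591357 on the plus strand, lay 0.93 below the chromosome median, and 12 of the chromosome's genes had a lower log2 fold change. The nearest annotated genes on both sides of each rose in the limma-trend fit. TRZ1, a tRNA processing endonuclease gene, and RPF2, a ribosome assembly gene, flank MTD1 and had log2 fold changes of 1.13 ± 0.08 (adjusted p = 2.51e-09) and 0.82 ± 0.07 (adjusted p = 6.33e-08). UBP11, a ubiquitin protease gene, and SKG1 flank BAS1 and had 1.34 ± 0.08 (adjusted p = 9.08e-10) and 0.97 ± 0.07 (adjusted p = 1.18e-08). None of the ADE genes lies on chromosome XI. The part of the raised chromosome XI values in those of BAS1 was not tested.

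**Figure D2:**
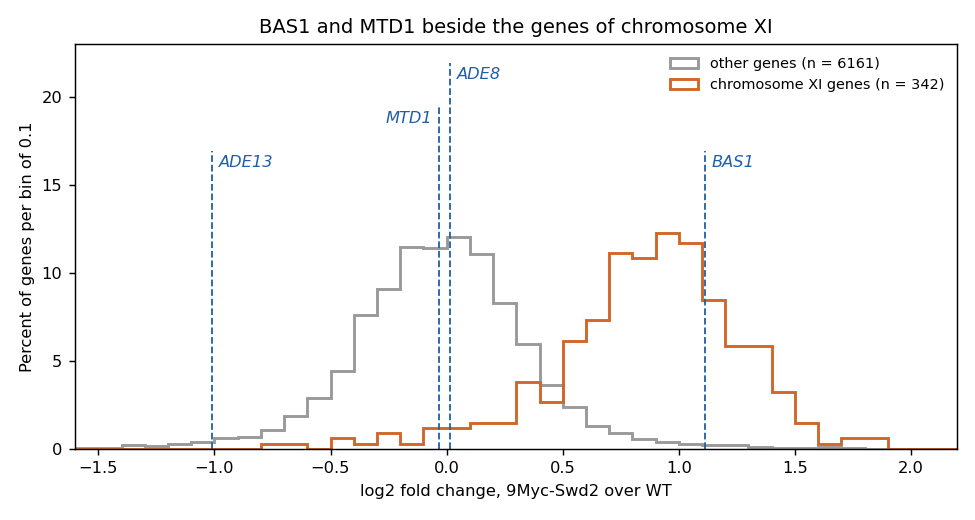
Distribution of the log2 fold change (9Myc-Swd2 over WT) as a percent of genes per bin of 0.1, for 342 chromosome XI genes and 6161 other genes, with dashed lines at ADE13, MTD1, ADE8 and BAS1; 12 genes, none on chromosome XI, lie outside the axis. BAS1 (1.11) lies within the bulk of chromosome XI genes, whereas MTD1 (-0.03) lies in their lower tail and at the middle of the other genes.

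Levels of different genes can be compared per kilobase of coding sequence. In WT the order of normalized counts per kilobase was ADE13 (7273 ± 69.5, SD, n = 2), ADE17 (5507 ± 163), ADE1 (4947 ± 68.8), SHM2 (4836 ± 92.5), MTD1 (3628 ± 101), ADE8 (2073 ± 17.1), ADE2 (1963 ± 98.0), ADE6 (1515 ± 28.3), ADE4 (1181 ± 25.2) and BAS1 (248 ± 1.14). Of these neighbours in the order, ADE1 and SHM2 overlapped between libraries and the others did not. In 9Myc-Swd2 the upper ranks drew together: ADE13 was at 3609 ± 206, MTD1 at 3550 ± 212 and SHM2 at 3541 ± 108 per kilobase, with overlapping libraries. ADE17 followed at 3113 ± 140 and ADE1 at 2597 ± 41.9, and BAS1 remained last at 542 ± 102.

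To show the letters that Bas1 is known to bind, the stretch from 250 to 141 bases before the coding start is printed for the 3 genes furthest below WT, for ADE8 and MTD1, whose groups overlapped, and for ADE16, the partner isozyme gene of ADE17. The sequences are from RefSeq R64, written 5′ to 3′ along the strand of the gene, with TGACTC and its reverse complement GAGTCA in capitals.
ADE13 (chrXII:844032-844141, plus strand): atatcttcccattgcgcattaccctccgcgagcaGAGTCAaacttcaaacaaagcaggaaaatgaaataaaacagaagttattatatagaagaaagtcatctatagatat
ADE1 (chrI:169125-169234, plus strand): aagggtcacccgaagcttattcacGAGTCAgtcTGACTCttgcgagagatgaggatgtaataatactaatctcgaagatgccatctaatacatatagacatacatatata
ADE17 (chrXIII:509421-509530, minus strand): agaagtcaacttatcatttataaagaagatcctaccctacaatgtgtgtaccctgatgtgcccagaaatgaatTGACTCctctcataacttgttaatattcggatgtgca
ADE8 (chrIV:1289000-1289109, minus strand): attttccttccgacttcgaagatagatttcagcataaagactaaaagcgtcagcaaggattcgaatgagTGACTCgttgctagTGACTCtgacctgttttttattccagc
MTD1 (chrXI:590145-590254, plus strand): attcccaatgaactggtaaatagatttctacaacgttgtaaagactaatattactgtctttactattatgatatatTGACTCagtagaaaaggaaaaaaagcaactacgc
ADE16 (chrXII:201456-201565, minus strand): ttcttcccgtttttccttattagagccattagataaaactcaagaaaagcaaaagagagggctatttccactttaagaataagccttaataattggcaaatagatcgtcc
The stretch of ADE13 overlaps the annotated reading frame YLR358C on that chromosome, and the others overlap no annotated gene. The printed stretch of ADE16 holds neither form of the letters.

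In the window from 250 bases before to 50 after the start, TGACTC or GAGTCA was found for 7 of the 10 genes and in 479 of 6021 protein-coding genes (7.96%). In the 500 bases before the start, a window chosen after the values were seen, 9 of the 10 genes held it, against 12.6% of all. ADE4 (357 bases before the start) and ADE6 (276 bases) had their match only in the longer window, and BAS1 had none there. The genes were picked as a Bas1 group, so this share describes the choice. Matches stood at like distances in genes with unlike values: the nearest match began 177 bases before the start in ADE17, 174 in MTD1 and 167 in ADE8. MTD1 lies on chromosome XI, 0.93 below that chromosome's median log2 fold change of 0.90. Its value is therefore not directly comparable with those of ADE17 and ADE8. The longer letters TGACTCA, which contain TGACTC and are the full core bound by Gcn4, were found in the 500 bases of 1 of the 10 genes, MTD1, and of 3.99% of all genes. Outside the lists, the 454 tested genes with TGACTC in the shorter window had a median log2 fold change of 0.03 (quartiles -0.20 and 0.26), and the 5434 without it 0.00 (quartiles -0.22 and 0.23).

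**Figure D3:**
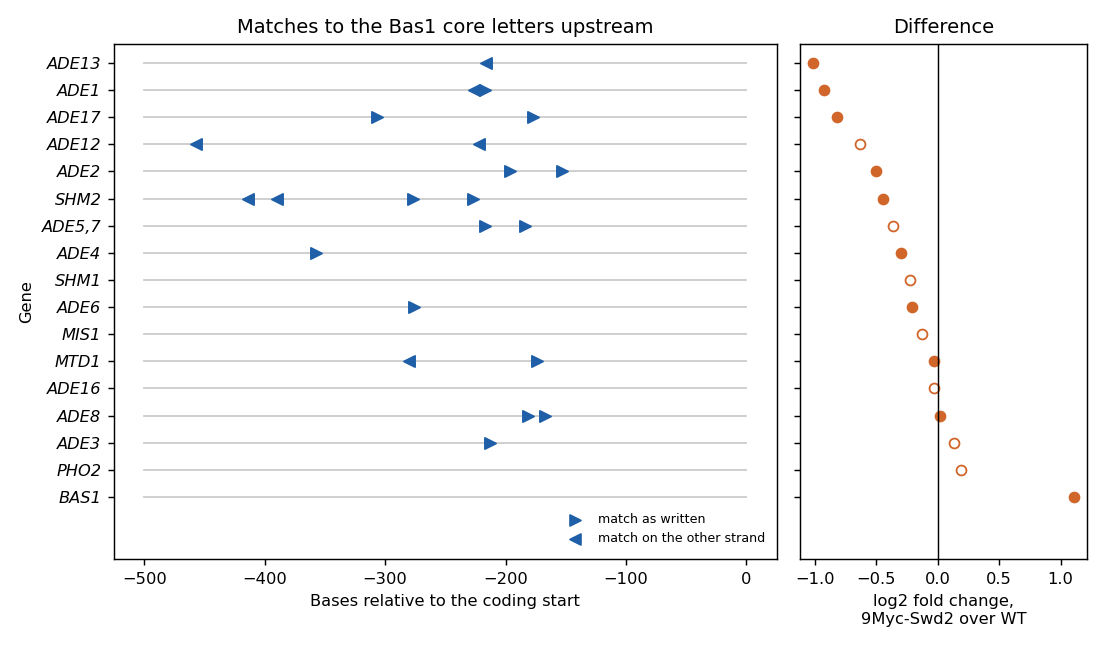
Left, positions of the Bas1 core letters in the 500 bases before the coding start (triangles point right for a match as written and left for a match on the other strand); right, log2 fold change of 9Myc-Swd2 over WT, with filled circles for the 10 genes and open circles for other pathway genes. Genes are sorted by fold change, and ADE8 and MTD1 carry matches at a log2 fold change near 0, as does ADE3 (0.13). MTD1 lies on chromosome XI, whose median log2 fold change was 0.90.

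The remaining genes of the pathways, 53 in 7 lists drawn up from textbook knowledge of the pathways, were read from the same fit. Of these, 21 fell and 9 rose at a limma-trend adjusted p under 0.05, beside 21.4% and 22.3% of all genes tested, and their median log2 fold change was -0.12 against 0.00 over all genes. By the letters in the 500 bases before the start, 9 of the 23 list genes with a match fell and 5 rose, and 12 of the 30 without a match fell and 4 rose. The choice of the 10 genes left these 53 behind, so they are not an independent sample of the pathway.

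The remaining IMP chain genes are ADE5,7 and ADE16. ADE5,7 (YGL234W), which encodes the enzyme that forms the intermediates GAR and AIR, was at 6283 and 6044 in WT and 4782 and 4815 in 9Myc-Swd2, and fell by 0.36 ± 0.07 on the log2 scale (limma-trend adjusted p = 0.000469). ADE16 (YLR028C) was at 3611 and 3596 in WT and 3624 and 3448 in 9Myc-Swd2, at a log2 fold change of -0.03 ± 0.07, short of the threshold (limma-trend adjusted p = 0.77). ADE16 and ADE17 encode isozymes of the same step and stood at -0.03 and -0.82; the coding sequences are 74.7% identical, with no shared stretch longer than 19 bases.

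In the AMP and GMP branches 5 of the 8 other genes fell and 1 rose, with a median log2 fold change of -0.29. ADE12, the adenylosuccinate synthase gene of the step before Ade13 in the AMP branch, fell from 4085 ± 57.3 to 2636 ± 214 (log2 fold change -0.63 ± 0.07, limma-trend adjusted p = 1.49e-06). IMD2, an IMP dehydrogenase gene of the GMP branch, fell from 620 ± 31.6 to 335 ± 11.5 (adjusted p = 3.22e-07), and the guanylate kinase gene GUK1 from 2309 ± 61.1 to 1774 ± 42.1 (adjusted p = 0.000171). IMD3 and the adenylate kinase gene ADK1 also fell. IMD2 and IMD3 share an identical stretch of 94 bases and IMD3 and IMD4 of 139 bases, so their separate counts are uncertain. AMD1, the AMP deaminase gene, which turns AMP back into IMP, rose from 770 ± 12.3 to 1127 ± 112 (adjusted p = 2.6e-05). ADK1 did not pass without WT replicate 2 (adjusted p = 0.10).

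PRPP, the substrate of the first step, is made by synthetases encoded by PRS1 to PRS5. PRS3 fell from 2809 ± 20.7 to 1757 ± 55.9 normalized counts (limma-trend adjusted p = 2.33e-07) and PRS2 from 1063 ± 10.3 to 830 ± 36.4 (adjusted p = 0.000696). PRS1 rose from 3174 ± 29.9 to 5080 ± 135 (log2 fold change 0.68 ± 0.07, adjusted p = 3.05e-07) and lies on chromosome XI, whose median was 0.90. PRS4 and PRS5 did not pass.

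In the one-carbon and folate list 3 of the 15 other genes fell, 3 rose and 9 did not pass, with a median log2 fold change of -0.07. The glycine cleavage genes GCV2 and GCV1, for the P and T subunits, rose from 1037 ± 83.5 to 1637 ± 30.3 (limma-trend adjusted p = 1.13e-06) and from 1814 ± 71.1 to 2267 ± 51.3 (adjusted p = 0.00086). MET13, the methylenetetrahydrofolate reductase gene, rose from 497 ± 3.80 to 613 ± 28.8 (adjusted p = 0.0069). FOL2, the GTP cyclohydrolase gene of folate synthesis, fell from 2448 ± 9.45 to 1643 ± 55.1 (adjusted p = 1.76e-06). SHM1, the mitochondrial counterpart of SHM2, fell from 3613 ± 101 to 3086 ± 21.3 (log2 fold change -0.23 ± 0.07, adjusted p = 0.0103), and the dihydrofolate reductase gene DFR1 also fell. ADE3, the cytosolic C1-tetrahydrofolate synthase gene that supplies formyl groups, was at 4829 and 4346 in WT and 5240 and 4822 in 9Myc-Swd2. Its groups overlapped (log2 fold change 0.13 ± 0.08, limma-trend adjusted p = 0.17). MIS1, the mitochondrial counterpart of ADE3, was at 3358 ± 7.69 and 3076 ± 146 (-0.13 ± 0.07, limma-trend adjusted p = 0.14). SHM1, MET13 and DFR1 each lost the call when WT replicate 2 was left out, with adjusted p of 0.054, 0.057 and 0.13; without WT replicate 1, SHM1 and MET13 had 0.13 and 0.063. DFR1 did not pass in the authors' deposited table either (adjusted p = 0.060), and lost the call in 5 of 16 alternatives.

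**Figure D4:**
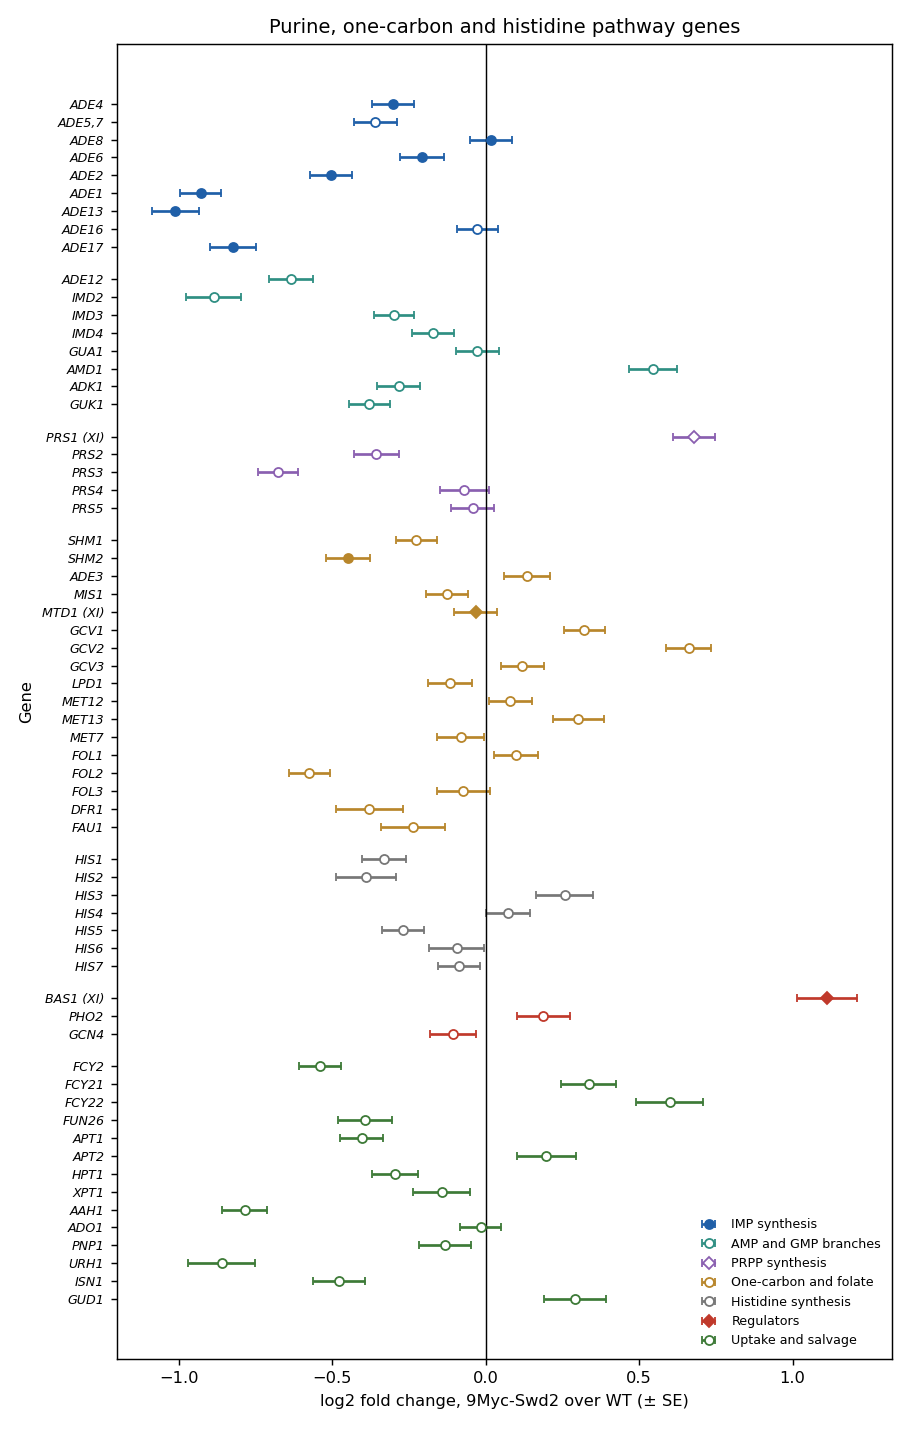
Log2 fold change of 9Myc-Swd2 over WT with SE for each pathway gene, coloured by list, with filled symbols for the 10 genes and open symbols for the others, and diamonds for genes on chromosome XI. The genes of the IMP chain range from -1.01 (ADE13) to 0.02 (ADE8), whereas the one-carbon and folate list lies on both sides of 0.

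Histidine synthesis shares PRPP and a purine intermediate with this pathway, and several of its genes are known targets of Bas1. Of its 7 genes, HIS1, HIS2 and HIS5 fell, HIS3 rose and 3 did not pass. HIS1, the phosphoribosyltransferase gene of the first step, fell from 2973 ± 64.1 to 2364 ± 174 (limma-trend adjusted p = 0.000995). HIS2 and HIS5, for a later phosphatase and an aminotransferase, fell from 523 ± 28.7 to 400 ± 44.9 (adjusted p = 0.00329) and from 1836 ± 51.5 to 1524 ± 58.9 (adjusted p = 0.00375). HIS3, the dehydratase gene, was at 633 and 546 in WT and at 753 and 656 in 9Myc-Swd2 (adjusted p = 0.0312), and it did not pass in the authors' deposited table (adjusted p = 0.12) and lost the call in 8 of 16 alternatives. Without WT replicate 2 HIS2, HIS5 and HIS3 did not pass, with adjusted p of 0.071, 0.073 and 0.37, and HIS3 did not pass without 9Myc-Swd2 replicate 1 (adjusted p = 0.18).

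Neither of the other regulators passed the threshold. PHO2, the gene of the partner of Bas1, was at 446 and 439 normalized counts in WT and at 516 and 493 in 9Myc-Swd2 (log2 fold change 0.19 ± 0.09, limma-trend adjusted p = 0.088). Both tagged libraries thus lay above both WT libraries. GCN4 was at 4445 and 5004 in WT and at 4518 and 4239 in 9Myc-Swd2 (-0.11 ± 0.08, adjusted p = 0.27), with overlapping groups.

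Of the 14 genes of the uptake and salvage list, 7 fell and 3 rose, with a median log2 fold change of -0.22. AAH1, the adenine deaminase gene, fell from 1631 ± 134 to 944 ± 9.02 (limma-trend adjusted p = 1.4e-07), and FCY2, the purine-cytosine permease gene, from 3384 ± 203 to 2322 ± 7.08 (adjusted p = 5.53e-06). URH1, a nucleosidase gene, fell from 333 ± 3.56 to 183 ± 12.1 (adjusted p = 6.26e-06), and APT1, the adenine phosphoribosyltransferase gene, from 1271 ± 46.0 to 959 ± 2.53 (adjusted p = 0.000158). ISN1, FUN26 and HPT1, for an IMP nucleotidase, a nucleoside transporter and the hypoxanthine-guanine phosphoribosyltransferase, fell too. FCY21, FCY22 and the guanine deaminase gene GUD1 rose; FCY21 and FCY22 share an identical stretch of 78 bases, so their separate counts are uncertain. Without WT replicate 1 FUN26 and HPT1 did not pass (adjusted p = 0.062 for each), without WT replicate 2 FCY21 and GUD1 did not (0.14 and 0.36), and without 9Myc-Swd2 replicate 1 GUD1 did not (0.11). GUD1 did not pass in the authors' deposited table (adjusted p = 0.13) and lost the call in 8 of 16 alternatives, among them quantile normalization (0.058) and scaling to total reads (0.081).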

How the data were processed

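Total RNA of 2 WT and 2 9Myc-Swd2 yeast libraries was measured. The authors deposited normalized read counts, a signal made by dividing gene counts by 1 size factor per library; this was found from the values, because 100% of them were whole multiples of 1 step per column, to within 1e-06 of the read number. Per the file headers, the authors' table also has log2 fold changes with SE, a Wald score, and p-values raw and adjusted. The submitters' processing notes name bcl2fastq 1.8.4 and the build sacCer3. The library kit keeps strand, per the labels' protocols, while the sources used here give no aligner, counter or strand setting.

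Here, limma-trend (limma 3.58.1, R 4.3.3) was fitted to log2(value + 1) for the 6503 of 6697 genes with a mean of at least 1, with group as the only term, two-sided, with Benjamini-Hochberg adjustment and a threshold of 0.05. Fold changes on this scale understate changes of low genes. The fit was also run on simulated counts with known changes, balanced in direction and without a shift of a whole chromosome. Those settings differ from these data, so the run does not show how often calls here are false. The 10 genes, the pathway lists and the tests were chosen with earlier results of these data known. In each list the genes past the threshold are named, at most 4 with values. ADE5,7, ADE16, ADE3, ADE12, SHM1, MIS1 and PHO2 are named in any case. GCN4, HIS4, HIS6, HIS7 and the chromosome XI neighbours were chosen after their values were seen. Positions and sequences came from RefSeq R64, the assembly that sacCer3 names, and 6014 identifiers (89.8%) matched it. The design named a ready table of promoters, which was not used here; the same window was read from the genome. Alternatives, 16 in all, were other scalings, edgeR 4.0.16 and DESeq2 1.42.0 on the recovered reads, and limma without a trend. The authors' comparison, a pseudocount of 0.1, other filters, a replicate block and each library left out made up the rest. A threshold of 0.01 was counted apart from these.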

Additional observations from a re-analysis of the deposited data

How the results depend on the processing

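The log2 fold changes of the 10 genes kept their sign under all 16 alternatives, except for ADE8 and MTD1, which lie near 0. BAS1 ranged from 0.92 without 9Myc-Swd2 replicate 1 to 1.31 without 9Myc-Swd2 replicate 2, and ADE13 from -1.07 to -0.95. ADE6 would not be called after quantile normalization, with limma without a trend, at 0.01 or without either WT replicate, nor ADE4 with limma without a trend. Over all genes, 882 were lower and 984 higher with limma without a trend. With no filter on low values 847 were lower and 950 higher. The authors' comparison and DESeq2 on the recovered reads each called 955 lower and 1094 higher. Their log2 fold changes differed by at most 5.23e-05, so they are nearly the same analysis. Leaving out 1 library gave 795 to 1438 lower and 982 to 1597 higher, the fewest lower without WT replicate 2. The cause was not tested. Higher genes made up 51.0% of the calls, and 40.9% with scaling to library totals. Of the 53 other pathway genes, 5 rose with no filter, and 5 to 10 with 1 library left out. In the one-carbon list 5 genes fell with scaling to totals and 1 with limma without a trend (1 to 5 with 1 library left out). In the histidine list 0 genes rose with quantile normalization, scaling to totals, DESeq2, limma without a trend, no filter, the authors' comparison or a threshold of 0.01 (0 to 1 with 1 library left out), and 1 fell with limma without a trend (1 to 3). In the uptake and salvage list 1 rose with limma without a trend and 0 with no filter (1 to 3). Limma without a trend also did not call ADK1, SHM1, DFR1, HIS2, HIS3, HIS5, FCY21, HPT1 and GUD1, and with no filter DFR1, HIS2, HIS3, FCY21, FCY22, FUN26, HPT1 and GUD1 did not pass. The chromosome XI median was 0.85 with quantile normalization, 0.84 with scaling to totals and 0.92 with size factors from other chromosomes. TGACTC was in 6.23% of windows without the 50 bases after the start and in 12.6% of the 500-base windows. A replicate block called 1566 genes lower and 1619 higher; the deviations of same-numbered libraries correlated at 0.042 across genes, and the labels do not pair them.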
